A study of Mus musculus with 8 samples.

Results

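The 9 genes described here mark the layers of the cerebral cortex: Rspo1, Lamp5 (named 6330527O06Rik on the array), Stard8, Rorb and Cux2 for the upper layers, and Cplx3, Tbr1, Fezf2 and Foxp2 for the deep layers. They were taken as the probes, control spots left out, whose gene name on the array equals one of these symbols, and they are 9 of 22898 gene symbols on it. A gene with several probes was read by its brightest one unless stated. All 9 passed the filter on dim probes (a probe had to be well above background in both samples of 1 or more of the 4 groups), as did 16359 genes in all.

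The neocortex is built of stacked layers of glutamatergic neurons, and neurons of the upper layers connect mainly to other cortical areas while those of the deep layers send axons to the thalamus, brain stem and spinal cord. Layer identity is set during development by transcription factors such as Cux2, Tbr1 and Fezf2 and is kept in adult neurons, so that transcripts of these genes serve as markers of the layers. The hippocampus is a simpler, older cortex without these layers, and it shares part of the same gene set. Tet1 encodes an enzyme that oxidises 5-methylcytosine in DNA, mostly at CG pairs, and so acts in the removal of DNA methylation.

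The study compared mice lacking Tet1 (KO) with wild type (WT) mice in brain cortex and hippocampus. There were 8 samples in 4 groups of 2: WT cortex, KO cortex, WT hippocampus and KO hippocampus. All mice were naive and on a mixed 129 C57BL6 background; age, sex, the deleted part of Tet1 and any Cre line are not in the labels, which also do not say whether the replicates are separate animals, so that the spread behind each p-value is that of these samples and may be technical. Each of the 4 arrays carried a WT sample in Cy3 and a KO sample in Cy5 of one tissue, and no dye was swapped, so genotype and dye cannot be told apart in any KO over WT value. The comparison of cortex with hippocampus stays within a dye.

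Levels are log2 signals after background correction and normalisation within and between arrays, and they were compared only within a probe. Of the spots other than controls, 49.7 to 51.7% were well above background in the Cy3 samples and 66.6 to 67.2% in the Cy5 samples, and 0 spots were saturated. The number of arrays limits the precision. All arrays sat on 1 slide and came from 1 scan. The brightest Tet1 probe was lower in KO than in WT on every array, by log2 ratios of -0.23 to -0.10, as was another of its 3 probes, while the third, too dim in WT to be well above background, was higher. By its brightest probe Tet1 was not called in cortex, hippocampus or their mean (limma, adjusted p 0.223, 0.232 and 0.0804). Of all genes, 17.7% were lower in KO on every array. Choroid plexus markers stood apart by sample: their 15 genes summed to 12200 in one WT cortex sample and 104596 in the other, and to 8392 and 286625 in the WT hippocampus samples. Of 14 markers of hippocampal fields, 13 were called lower in WT cortex than in WT hippocampus, and Slc17a7, the vesicular glutamate transporter of cortical and hippocampal neurons, had nearly equal levels (log2 cortex over hippocampus 0.05 ± 0.12 SE in WT). All 16 striatal markers were higher in WT cortex than in WT hippocampus, 15 of them called, with a median log2 difference of 2.30, among them Drd2, the dopamine receptor of striatal neurons, which was at least 2.27-fold higher (its probe was not well above background in WT hippocampus). The summed striatal signal was 282155 to 340680 in WT cortex, 246405 to 254710 in KO cortex and 74890 to 87173 in hippocampus of either genotype; the part of striatal RNA in the results below was not tested.

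Promoters from RefSeq (GRCm38.p6; 250 bases before to 50 after the start) were found for 8 of the 9 genes, 11 promoters in all, with Foxp2 the gene not matched. CG pairs are shown in capitals because they are the sites at which Tet1 acts. Of 32851 promoters, 94.6% hold at least 1 CG pair and the median is 7.
Shown are Rspo1, the gene with the largest tissue difference, Rorb at both of its starts, the gene with the largest KO over WT value, and Fezf2, the only one of the 9 not higher in cortex.
Rspo1 (chr4:124986180-124986479, plus strand): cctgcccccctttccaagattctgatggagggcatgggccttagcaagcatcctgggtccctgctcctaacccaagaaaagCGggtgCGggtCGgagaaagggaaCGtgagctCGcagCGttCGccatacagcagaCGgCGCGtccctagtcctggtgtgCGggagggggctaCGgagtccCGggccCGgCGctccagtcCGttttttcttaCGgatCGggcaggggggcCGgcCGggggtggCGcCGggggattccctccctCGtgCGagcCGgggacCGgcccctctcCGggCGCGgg
Rorb, first start (chr19:19111147-19111446, minus strand): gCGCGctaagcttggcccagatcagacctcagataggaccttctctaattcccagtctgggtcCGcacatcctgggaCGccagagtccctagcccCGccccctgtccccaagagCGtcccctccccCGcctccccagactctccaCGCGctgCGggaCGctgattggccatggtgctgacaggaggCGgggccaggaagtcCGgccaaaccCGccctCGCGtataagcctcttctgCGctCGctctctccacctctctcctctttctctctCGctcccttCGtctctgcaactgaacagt
Rorb, second start (chr19:19001068-19001367, minus strand): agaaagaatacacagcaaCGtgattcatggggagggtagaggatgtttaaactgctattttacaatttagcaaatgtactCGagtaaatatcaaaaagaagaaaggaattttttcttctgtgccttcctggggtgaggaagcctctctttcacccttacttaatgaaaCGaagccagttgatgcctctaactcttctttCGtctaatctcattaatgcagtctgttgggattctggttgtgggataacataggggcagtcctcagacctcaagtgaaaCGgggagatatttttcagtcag
Fezf2 (chr14:12345816-12346115, minus strand): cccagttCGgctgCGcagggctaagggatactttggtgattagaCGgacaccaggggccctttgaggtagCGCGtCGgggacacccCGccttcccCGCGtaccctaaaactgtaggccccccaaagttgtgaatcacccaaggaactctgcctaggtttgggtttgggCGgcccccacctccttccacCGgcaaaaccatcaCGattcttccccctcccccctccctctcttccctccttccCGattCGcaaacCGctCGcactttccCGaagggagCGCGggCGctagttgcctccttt
The Rspo1 promoter held 29 CG pairs, a number reached by 12.9% of all promoters. Rorb held 20 at its first start and 5 at the second, and Fezf2 held 20, numbers reached by 26.5%, 61.96% and 26.5%. The other promoters ranged from 48 CG pairs at one start of Cux2, which 1.22% of promoters reach, through 11 in Cplx3, 9 in Stard8, 7 in Tbr1 and 4 at the second start of Cux2 to 3 and 2 at the starts of Lamp5. The members thus ranged from CG-rich to CG-poor. Only Fezf2 among these genes was not called higher in cortex, so CG content cannot be compared by call here. Motifs of the factors among the members were searched on both strands: the T-box half-site AGGTGTGA lay in 0 of the 11 promoters (1.28% of all), the forkhead motif TGTTTAC in 0 (3.65%) and the ROR half-site AGGTCA in 2, Stard8 and Cplx3 (16.3%). Such matches describe letters in these windows only.

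Cortex over hippocampus in WT was the first comparison, both groups being in Cy3, and 8 of the 9 genes were called higher in cortex (adjusted p under 0.05, limma with Benjamini-Hochberg over 16359 genes) and 0 lower; over all genes 15.2% were called, 7.35% higher and 7.84% lower. The same 8 genes were called higher in KO cortex than in KO hippocampus, measured in Cy5, where 15.1% of all genes were called, 7.73% of them higher. The members were chosen with earlier results of these data known, so these counts may in part restate that choice. Foxp2 passed the filter on dim probes only through its cortex groups, and it has only a bound in WT, at least 1.77-fold. Among the other called genes, fold differences ran from 2.01 for Rorb to 6.97 for Rspo1 in WT, and from 2.19 to 6.01 for the same genes in KO. The median log2 difference of the upper layer genes was 1.82 in WT and 2.0 in KO, and that of the deep layer genes 1.42 and 1.43, beside -0.02 and -0.01 over all genes. With Foxp2 at its bound the deep layer median in WT was 1.105. In bulk tissue, fewer cells of a type and less RNA per cell cannot be told apart.

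**Figure D1:**
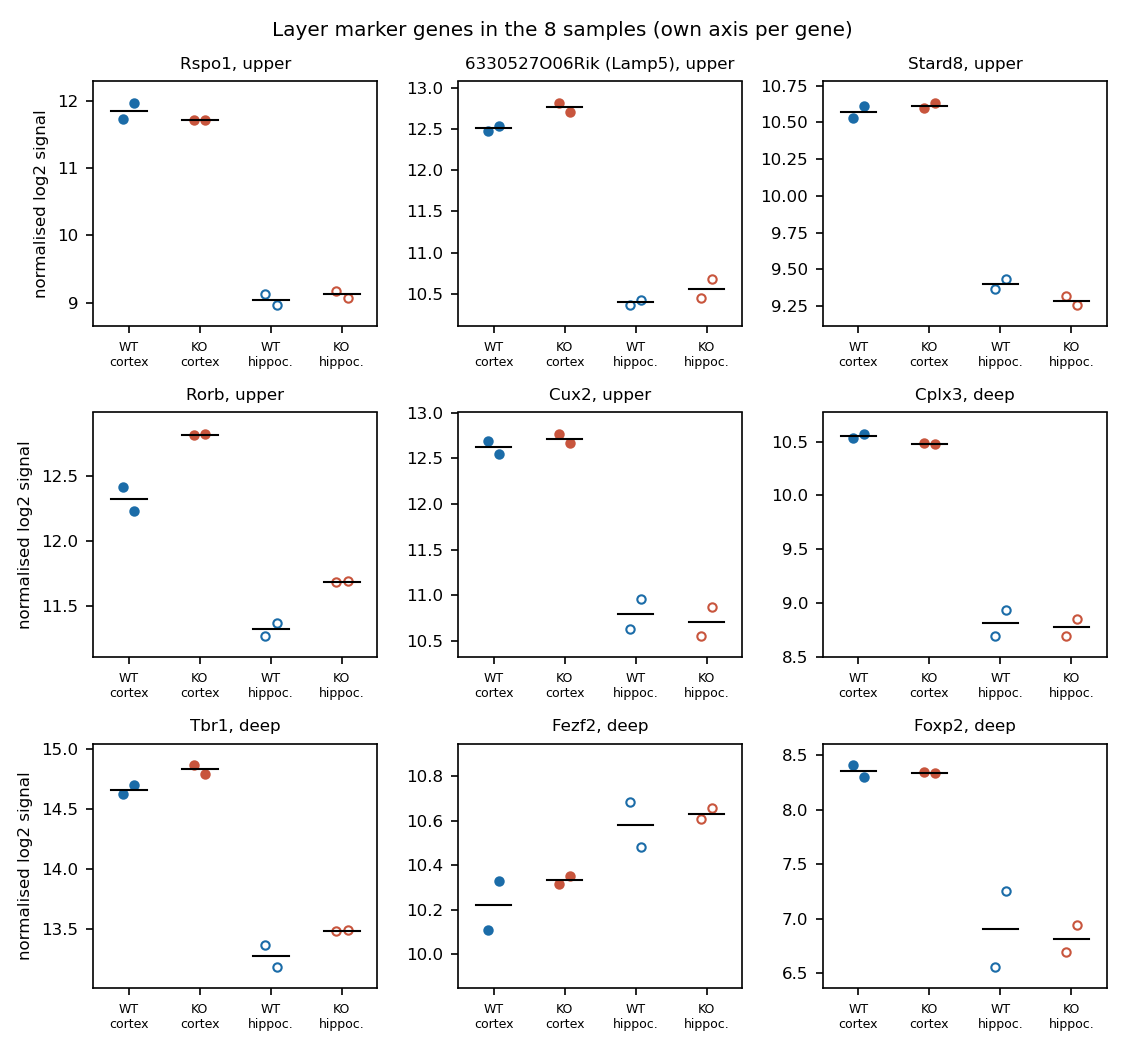
Normalised log2 signal of each gene in the 8 samples, 1 panel per gene with its own axis; filled points are cortex, open points hippocampus, blue WT (Cy3), red KO (Cy5), and bars are group means. In 8 panels the cortex samples of each dye lie above the hippocampus samples of that dye, and in the Fezf2 panel they lie below. Of all genes, 24.7% lay above and 31.2% below in this way in WT, and 28.9% and 31.5% in KO.

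Among the upper layer genes, Rspo1, which encodes R-spondin 1, a secreted enhancer of Wnt signalling, gave levels of 11.73 and 11.97 in WT cortex, 11.71 and 11.71 in KO cortex, 9.13 and 8.97 in WT hippocampus and 9.18 and 9.07 in KO hippocampus. The lowest cortex sample stood 2.53 above the highest hippocampus sample, and replicates differed by at most 0.24. The difference was 2.80 ± 0.10 (SE, 2 samples a group) in WT, a 6.97-fold higher level (adjusted p 4.84e-05), and 2.59 ± 0.10 in KO.
Lamp5, a lysosome-associated membrane protein gene of upper layer neurons and of some interneurons, gave 12.47 and 12.54 in WT cortex, 12.82 and 12.71 in KO cortex, 10.36 and 10.43 in WT hippocampus and 10.45 and 10.68 in KO hippocampus. Its difference of 2.11 ± 0.10 in WT (4.32-fold, adjusted p 7.31e-05) and 2.20 ± 0.10 in KO was larger than its widest replicate gap of 0.23. Lamp5 is the one member printed at 10 spots on each array, and its value is the mean of those spots.
Cux2, a homeodomain transcription factor of layers II to IV, gave 12.69 and 12.55 in WT cortex, 12.77 and 12.67 in KO cortex, 10.64 and 10.96 in WT hippocampus and 10.56 and 10.87 in KO hippocampus. Its replicates differed by at most 0.32, in hippocampus, and the lowest cortex sample lay 1.59 above the highest hippocampus sample. The difference was 1.82 ± 0.13 in WT (3.54-fold, adjusted p 0.000327) and 2.0 ± 0.13 in KO.
Stard8, a GTPase-activating protein gene with a lipid-binding START domain, gave 10.53 and 10.61 in WT cortex, 10.60 and 10.63 in KO cortex, 9.37 and 9.43 in WT hippocampus and 9.32 and 9.26 in KO hippocampus. The groups of the tissues did not overlap, and the difference was 1.17 ± 0.07 in WT (2.25-fold, adjusted p 0.000164) and 1.33 ± 0.07 in KO.
Rorb, an orphan nuclear receptor of layer IV that is also known from the thalamus, gave 12.42 and 12.24 in WT cortex, 12.82 and 12.83 in KO cortex, 11.27 and 11.37 in WT hippocampus and 11.69 and 11.69 in KO hippocampus. Its level differed less between tissues than that of the other upper layer genes, by 1.0 ± 0.08 in WT (2.01-fold, adjusted p 0.000535) and 1.13 ± 0.08 in KO, and within each tissue both KO samples lay above both WT samples.

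Among the deep layer genes, Cplx3, a complexin that acts in synaptic vesicle release and marks the deepest layer, VIb, and some upper layer interneurons, gave 10.53 and 10.57 in WT cortex, 10.48 and 10.48 in KO cortex, 8.70 and 8.94 in WT hippocampus and 8.70 and 8.86 in KO hippocampus. WT and KO of one tissue lay close together, and the tissues were apart by 1.73 ± 0.10 in WT (3.32-fold, adjusted p 0.000125) and 1.70 ± 0.10 in KO.
Tbr1, the T-box transcription factor of layer VI, gave 14.62 and 14.69 in WT cortex, 14.87 and 14.79 in KO cortex, 13.37 and 13.18 in WT hippocampus and 13.49 and 13.49 in KO hippocampus. All cortex samples were higher than all hippocampus samples, by 1.38 ± 0.08 in WT (2.61-fold, adjusted p 0.000167) and 1.34 ± 0.08 in KO.
Foxp2, a forkhead transcription factor of layer VI that is also known from striatum and thalamus, gave 8.41 and 8.30 in WT cortex, 8.34 and 8.34 in KO cortex, 6.56 and 7.25 in WT hippocampus and 6.70 and 6.94 in KO hippocampus. Its probe was well above background in all 4 cortex samples, in neither WT hippocampus sample and in 1 of 2 KO hippocampus samples. A level measured as a bound, against the lowest signal counted as above background, was at least 1.77-fold higher in WT cortex (adjusted p of the fit 0.00411). Its hippocampus samples also had the widest replicate gap of the 9 genes, 0.70. The 9 thalamic markers tested also differed between the WT hippocampus samples, with summed signals of 14044 and 41369, and their median KO over WT log2 ratio was -1.18 on the array of hippocampus replicate 2, where that of Foxp2 was -0.31; their part in the Foxp2 values was not tested. The fitted log2 difference, which rests on the dim samples, was 1.45 ± 0.20 in WT and 1.52 ± 0.20 in KO. Without cortex replicate 1 or 2 it was 1.40 and 1.51 in WT, but cortex then had 1 array, so no call is read there. Over the alternatives the WT value ranged from 0.75 to 3.01.

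Fezf2, the zinc finger factor that directs layer V neurons to the spinal cord, was the exception. It gave 10.11 and 10.33 in WT cortex, 10.31 and 10.35 in KO cortex, 10.68 and 10.48 in WT hippocampus and 10.61 and 10.66 in KO hippocampus. Both cortex samples lay below both hippocampus samples in each genotype, the reverse of the other 8 genes. Among all genes, 31.2% had WT cortex below WT hippocampus without overlap and 24.7% above; in KO these were 31.5% and 28.9%. The difference of -0.36 ± 0.10 in WT (95% interval -0.61 to -0.11) and -0.30 ± 0.10 in KO (-0.55 to -0.05) did not pass the test, with adjusted p of 0.0619 and 0.108, and no alternative processing took it past the threshold (adjusted p 0.0503 to 0.365 in WT and 0.0734 to 0.354 in KO). Its single probe lies at chr14:13175057-13175116 (mm9, minus strand) and is shown because the exception rests on it alone.
Fezf2 probe: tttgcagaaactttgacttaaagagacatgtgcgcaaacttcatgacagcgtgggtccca
Its 60 bases hold no stop codon in 1 of the 3 forward reading frames.

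**Figure D2:**
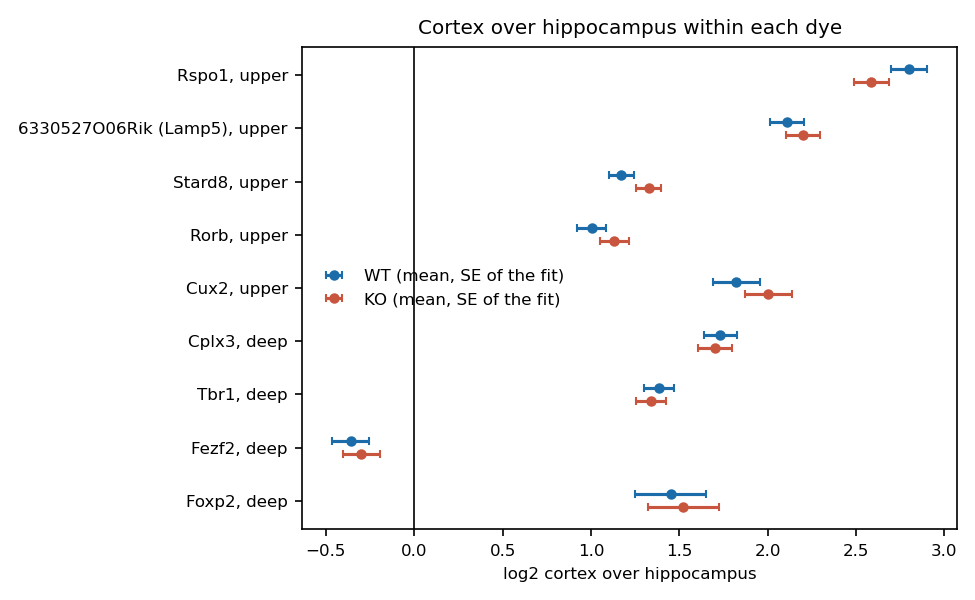
Log2 difference between cortex and hippocampus of the 9 genes in WT (blue, Cy3) and KO (red, Cy5), with the standard error of the fit. Values lie between 1.0 and 2.80 for 8 genes in both genotypes and below 0 for Fezf2; the WT value of Foxp2 rests on hippocampus samples not above background.

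Of the members 4 carry more than 1 probe, and the dimmer probes gave the same direction between tissues wherever they could be read. The second Rorb probe, well above background in all 8 samples, differed by 0.85 ± 0.08 in WT (adjusted p 0.00112 over 26017 probes) and 0.83 ± 0.08 in KO. The second Cux2 and Tbr1 probes were well above background in WT cortex but in neither WT hippocampus sample, so that they were at least 1.92-fold and at least 1.5-fold higher in WT cortex. A second Foxp2 probe, whose ends lie 1172 bases apart in the genome and which therefore spans an intron, was above background in the KO cortex samples alone and exceeded its KO hippocampus level at least 2.04-fold there. The third Foxp2 probe was above background in 0 of 8 samples and gives no value.

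KO over WT was measured as a ratio within each array. In cortex, 0 of the 9 genes were called, beside 0.0611% of all genes (0.0122% higher and 0.0489% lower, 10 of 16359), and 2, Rorb and Lamp5, had an unadjusted p under 0.05, as had 3473 of all genes. The upper layer genes had a median log2 ratio of 0.09 and the deep layer genes of 0.05, beside 0.04 over all genes. On the separate cortex arrays the medians were 0.08 and 0.11 for the upper layers and 0.08 and 0.03 for the deep layers, so that neither set stood far from the median of all genes, 0.03 on both arrays.
Both KO samples lay above both WT samples in cortex for 3 genes (Lamp5, Rorb, Tbr1) and below for 2 (Rspo1, Cplx3), and 4 overlapped. Among all genes 33.5% lay above and 22.4% below in this way.

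**Figure D3:**
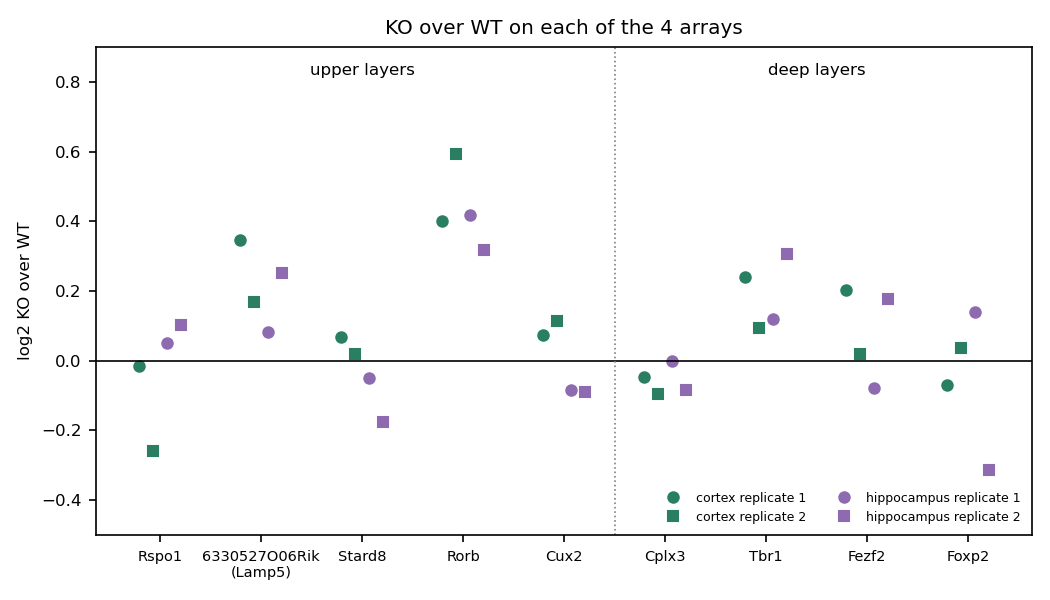
Log2 ratio of KO (Cy5) over WT (Cy3) of the 9 genes on each of the 4 arrays, upper layer genes at the left and deep layer genes at the right. Rorb lies at 0.32 to 0.59 on all arrays, and 3 upper layer genes, Rspo1, Stard8 and Cux2, have opposite signs in the 2 tissues, as have 5.64% of all genes. Each gene is shown by its brightest probe, and the second Cux2 probe does not split this way.

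Rorb gave the largest ratio, 0.40 and 0.59 in cortex and 0.42 and 0.32 in hippocampus. It was above 0 on every array, as were Lamp5 and Tbr1 and 28.1% of all genes; Cplx3 was the 1 member below 0 on every array, as were 17.7% of all genes. The cortex value of 0.50 ± 0.08 (1.41-fold, 95% interval 0.29 to 0.70) had an adjusted p of 0.0952 and was not called, and the hippocampus value was 0.37 ± 0.08 (adjusted p 0.110). Averaged over both tissues, Rorb was called higher in KO, by 0.43 ± 0.06 (1.35-fold, adjusted p 0.0303), the 1 member called in that comparison, in which 11.0% of all genes were called, 7.18% higher and 3.84% lower. This call was lost when outlying local backgrounds were kept (0.30, adjusted p 0.189), where 0.0183% of all genes were called. It was also lost with an intensity trend and robust estimation (adjusted p 0.0757), where 0% of all genes were called. In these 2 settings almost no gene was called, so the loss there is not particular to Rorb. With the mean of both probes it was lost as well (0.16, adjusted p 0.0833), beside 11.0% of all genes called. Without any 1 of the 4 arrays the value was 0.38 to 0.48, but 1 tissue then had 1 array, so no call is read there.
The 2 Rorb probes gave opposite signs. The brighter one, A_66_P118699 (chr19:19006883-19006942, mm9, minus strand), gave the positive ratios above, while A_55_P2290388 (chr19:19012149-19012208, minus strand), which starts 5266 bases away, gave -0.06 and -0.17 in cortex and -0.07 and -0.14 in hippocampus. All 8 ratios therefore split by probe and not by tissue or replicate. The second probe had a mean over both tissues of -0.11 ± 0.05 and was not called (adjusted p 0.199 in the fit of 26017 probes), against 0.43 ± 0.06 for the first in that fit (adjusted p 0.0252). The difference between the probes was not tested, and since each probe is read in one dye per genotype, a dye effect of either probe cannot be told apart from genotype. Which exons the probes read was not analysed here.

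**Figure D4:**
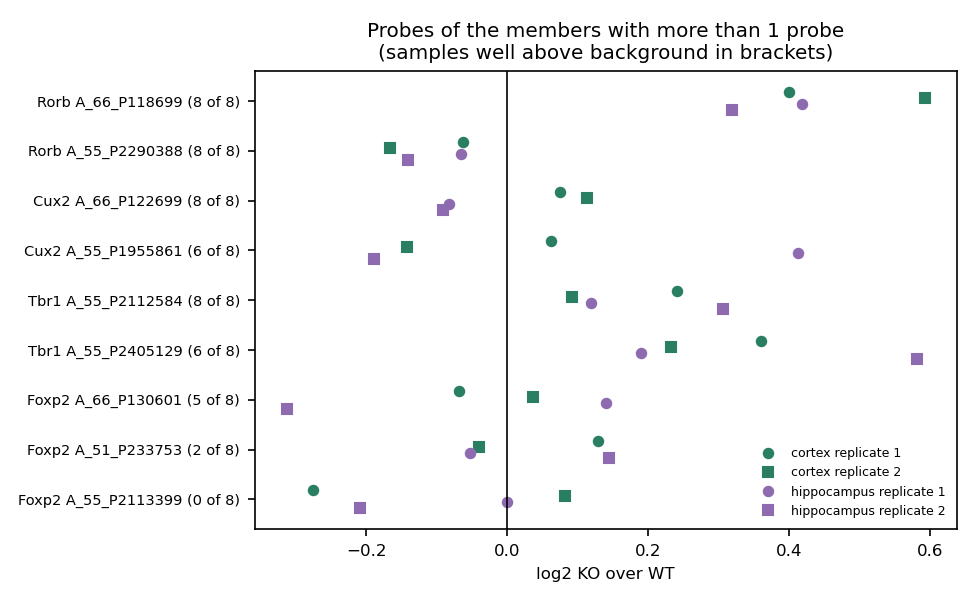
Log2 ratio of KO over WT on each array for every probe of the 4 genes with more than 1 probe; in brackets, the number of the 8 samples in which the probe was well above background. The 2 Rorb probes, both above background in 8 samples, lie on opposite sides of 0 on all arrays, and those of Tbr1 on the same side, its dimmer probe not being above background in WT hippocampus.

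Lamp5 had ratios of 0.35 and 0.17 in cortex and 0.08 and 0.25 in hippocampus. The SD over its 10 spots was 0.049 to 0.062 on the 4 arrays, which covers the error of the spots only. The cortex value was 0.26 ± 0.08 (95% interval 0.04 to 0.48, adjusted p 0.196) and the mean of both tissues 0.21 ± 0.06 (adjusted p 0.0855); neither was called.
Tbr1 had ratios of 0.24 and 0.09 in cortex and 0.12 and 0.31 in hippocampus. All 4 were positive. Its dimmer probe gave 0.36 and 0.23 in cortex; in hippocampus that probe was not above background in the WT samples, and it was at least 1.05-fold higher in KO. The cortex value was 0.17 ± 0.08 (adjusted p 0.321) and the hippocampus value 0.21 ± 0.08 (adjusted p 0.215), neither called.
The other genes had cortex values between -0.14 for Rspo1 and 0.11 for Fezf2, with adjusted p of 0.403 to 0.955. Their 95% intervals ran from that of Cux2, -0.07 to 0.26, to that of Foxp2, -0.34 to 0.31, and changes within them were not detectable with these arrays. In the same comparison all 16 striatal markers were below 0 (median -0.28, 0 called) and all 15 choroid plexus markers above 0 (median 1.28, 0 called). All 7 general neuron markers were above 0 (median 0.17, 0 called; 0.15 in the mean of both tissues, again all 7 above 0), and 11 of 12 microglia markers were below 0 (median -0.20, 0 called). The part of these lists in the members' ratios was not tested. In hippocampus 0 of the 9 were called as well, beside 0.0183% of all genes (0.00611% higher and 0.0122% lower), and 1, Rorb, had an unadjusted p under 0.05, as had 3892 of all genes. KO lay above WT in hippocampus without overlap for Lamp5, Rorb and Tbr1 and below for Stard8, beside 29.7% and 21.3% of all genes. Several marker lists lay below 0 there: all 15 genes of choroid plexus (median -1.34), all 10 of the leptomeninges (-1.09), all 9 of thalamus (-0.55), 11 of 12 of oligodendrocytes (-0.24) and 11 of 12 of endothelium (-0.26), with 0 called. The 2 arrays differed: on hippocampus replicates 1 and 2 the medians were 0.11 and -2.76, -0.79 and -1.38, -0.08 and -1.18, 0.11 and -0.64, and -0.14 and -0.34 in that order. Other lists were split, with 6 of 12 microglia, 7 of 16 striatal, 5 of 11 interneuron and 4 of 10 astrocyte markers above 0. Of the neuron markers 5 of 7 were above 0 (median 0.09). The part of all these lists in the members' hippocampus ratios was not tested.

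The ratio was then compared between tissues, a difference in which a dye effect equal on all arrays cancels. Of the 9 genes 0 were called, and 0.0% of all genes (0 of 16359, limma), with 0 members and 739 genes at an unadjusted p under 0.05. Values ran from -0.21 ± 0.12 for Rspo1 to 0.18 ± 0.09 for Cux2, and the adjusted p was about 1.0 for each. A difference between tissues in the response to genotype was thus not detectable for these genes with 2 arrays a tissue.

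The other layer genes of the wider lists did not follow the 9 members closely. Of 13 other upper layer genes tested, 6 were called higher and 3 lower in WT cortex than in WT hippocampus, with a median of 0.47, and in KO 4 and 3, with a median of 0.34. Beside these counts and those of the deep layer list below, 7.35% of all genes were called higher and 7.84% lower in WT. In KO these shares were 7.73% and 7.35%. Plxnd1, a semaphorin receptor, was higher in WT cortex by 1.82 ± 0.13 (adjusted p 0.000306), while Mdga1, an adhesion molecule of upper layer neurons, was lower by 1.88 ± 0.12 on the log2 scale, and Matn2, an extracellular matrix protein gene, lower by 1.34 ± 0.11. Of 22 other deep layer genes, 9 were called higher and 4 lower in WT, with a median of 0.31, and 10 and 4 in KO, with a median of 0.29. Among the 4 called lower in WT was Fam84b, whose probe was well above background in 0 WT samples of either tissue. Its call is therefore no measured difference. Syt6, a synaptotagmin, was higher by 1.58 ± 0.08 (adjusted p 9.51e-05) and Oprk1, the kappa opioid receptor, was at least 2.35-fold higher, while Crym, which encodes the thyroid hormone-binding protein mu-crystallin, was lower by 1.34 ± 0.13. Genes known as layer markers were thus found on both sides between cortex and hippocampus, and the 9 members lay mostly on the cortex side. Members and lists were chosen with earlier results of these data known, so this contrast is not a test.
In KO over WT in cortex 0 of these genes were called; 5 upper layer genes were above 0 and 8 below, and 10 deep layer genes above and 12 below. The smallest p-values of the upper list were those of Igsf9b, an adhesion molecule gene (at least 1.27-fold higher in KO, its WT probe signal not being well above background; adjusted p 0.124), Pvrl3 (-0.29 ± 0.07, adjusted p 0.142) and Scnn1a (-0.28 ± 0.09, adjusted p 0.186), and of the deep list those of Oprk1 (-0.83 ± 0.15, adjusted p 0.105), Fam84b (not well above background in WT, adjusted p 0.158) and Ldb2 (0.19 ± 0.08, adjusted p 0.245). Averaged over both tissues, 1 upper layer gene was called higher (Igsf9b) and 1 lower (Pvrl3), and 2 deep layer genes higher (Ldb2 and Tle4, the latter named after its values were seen) and 1 lower (Oprk1), out of 13 and 22 genes, beside 7.18% of all genes called higher and 3.84% lower; counts this small are no result about the lists. Oprk1 had ratios of -1.04, -0.61, -0.84 and -0.44 on the 4 arrays and a mean of -0.73 ± 0.11 (limma, adjusted p 0.0336). Its probe was not well above background in WT hippocampus. Calls in the mean of both tissues depended on the processing. With an intensity trend and robust estimation 0% of all genes were called there, and with outlying backgrounds kept 0.0183%.

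**Figure D5:**
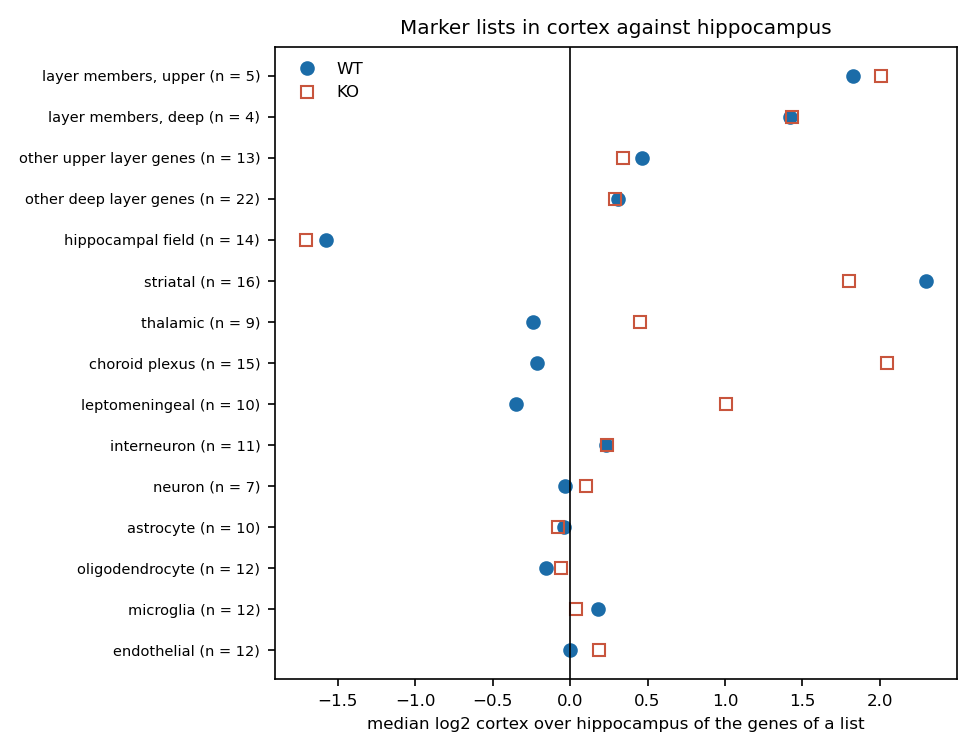
Median log2 difference between cortex and hippocampus in WT (filled, Cy3) and KO (open, Cy5) for the layer genes and for marker lists of other cell types and regions, with the number of genes tested. The members lie at 1.42 to 2.0, the other layer genes at 0.29 to 0.47, and the striatal list at 2.30 and 1.80. With Foxp2 at its bound the WT median of the deep layer members is 1.105. The choroid plexus list lies at -0.21 in WT and 2.04 in KO, with 0 of its 15 genes called in either. Its replicates differed widely, with summed signals of 8392 and 286625 in the WT hippocampus samples.

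By likeness of the 8 values, centred within each dye, each member had genes that followed it at Pearson's r above 0.99 over 8 samples. Tbr1 was among the 2 genes most like Rspo1, and Tmem132d was among the 2 most like both Lamp5 and Cplx3, differing between tissues by 1.48 in WT. For Tbr1 the nearest were Garnl3 and Sgtb, for Foxp2 Pdrg1 and Meis1, for Rorb Hrasls and Grb7, and for Fezf2, which ran against the rest, Tmem39b and Lgr4. Since the samples fall into 2 tissues, between 1000 and 1529 genes reached an r above 0.9 with each member, so that likeness here mostly restates the tissue difference.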

How the data were processed

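Total RNA was amplified from 0.5 µg per sample and hybridised to Agilent 2-colour arrays, per the labels. Spot intensities are those the authors deposited using Feature Extraction (version 10.1.1.1 per the file headers) as mean signal, median local background and a processed signal; the deposited value table holds log2 values per channel, for which the submitters' processing notes name limma without a version. The 8 samples are the 2 channels of 4 arrays.

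From the mean signals, background was corrected by normexp (offset 50) with outlying local backgrounds set to the array's median, and log ratios were normalised by loess (span 0.3) with 1377 control spots at weight 0, using limma 3.58.1 in R 4.3.3. Single channels were scaled by Aquantile. KO over WT was fitted by lmFit and eBayes on 4 log2 ratios with 1 mean per tissue; cortex over hippocampus by lmscFit (intraspot correlation 0.192). P-values were adjusted by Benjamini-Hochberg over 16359 genes, and scripts were tested on simulated data. Of 30497 probes with a symbol, each gene was read by its brightest. Where a probe was not well above background in a group, a bound is given if there is one. It is the mean of the bright group over the higher of the array's lowest signal well above background and the probe's own. For Foxp2 and Oprk1, dim in WT hippocampus, fitted values are given as well. Counts and medians of lists use fitted values, and the mean of a gene's probes includes dim ones. Named genes are the 9 members, the 3 other genes of each wider layer list with the smallest p in the WT tissue comparison and in KO over WT in cortex, Slc17a7 and Drd2, Tet1, and the 2 genes most like each member. The members and lists were chosen with earlier results of these data known. The tried alternatives are in the closing section.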

Additional observations from a re-analysis of the deposited data

Results flagged for a closer look

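For 3 upper layer genes the ratio of KO over WT had one sign on both cortex arrays and the other sign on both hippocampus arrays, as had 5.64% of all genes. For Rspo1 the ratio was negative in cortex and positive in hippocampus, a difference of -0.21 ± 0.12. For Stard8 it was positive in cortex and negative in hippocampus, a difference of 0.16 ± 0.10. For Cux2 it was likewise positive and then negative, a difference of 0.18 ± 0.09. The second Cux2 probe gave 0.06 and -0.14 in cortex, so for Cux2 the split of signs rests on the brightest probe. In WT hippocampus that second probe was not well above background. The test of the difference itself (limma, adjusted over 16359 genes) passed for none of the 3 genes, with adjusted p near 1.0 for each.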

How the results depend on the processing

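Over 15 alternatives the 9 genes kept their direction between tissues in all 268 values. With all 4 arrays, the 8 genes stayed called and Fezf2 uncalled in every alternative that tested them. Beside this, 9.05% to 17.4% of all genes were called. Without 1 array, 1 tissue had 1 array left, so no call is read there. Foxp2 could not be tested with the strict filter on dim probes. Fits without 1 array or with the replicate block used the intraspot correlation of all 4 arrays.

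The KO over WT counts moved. With median centring in place of loess, which removed array medians of 0.92 to 1.06, 5 members were called in cortex (Lamp5, Rorb, Cux2 and Tbr1 higher, Foxp2 lower), 5 in hippocampus (Rorb and Tbr1 higher, Stard8, Cplx3 and Foxp2 lower) and 5 in the mean of both tissues (Lamp5, Rorb and Tbr1 higher, Cplx3 and Foxp2 lower), beside 43.6%, 49.6% and 62.5% of all genes. With no block within an array, 1 was called in cortex, Rorb, higher, beside 1.69% of all genes. In the mean of both tissues 0 were called with outlying backgrounds kept, beside 0.0183% of all genes. With an intensity trend and robust estimation 0 were called, beside 0% of all genes, and with the mean of probes 0, beside 11% of all genes. Without any 1 array, 1 tissue had 1 array left, so calls are not given.

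Replicate numbers shared by the tissues are not said to mark animals. Same-numbered deviations correlated at 0.16 for the ratios, -0.09 in WT and 0.24 in KO, which with 2 pairs does not pair them. With the replicate block, 8 members stayed called between tissues in each genotype, beside 13.8% of all genes in each. In KO over WT 0 were called in cortex and 1 in the mean of both tissues, beside 0.526% and 14.2% of all genes.

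Medians between tissues moved as follows. For the upper layers in WT it was 1.48 with the mean of probes; in KO it was 1.73 with outlying backgrounds kept and 1.5 with the mean of probes. For the deep layers in WT it was 1.70 with Feature Extraction's processed signals, 1.08 with outlying backgrounds and 0.95 with the mean of probes; in KO it was 1.69, 1.11 and 0.93 in that order, 1.28 with no background subtraction, 1.28 with the deposited value table and 1.34 with the strict filter. For KO over WT in cortex the upper median was 0.27 with median centring, 0.059 with processed signals, -0.055 with outlying backgrounds and 0.043 with the mean of probes; the deep median was -0.019 with outlying backgrounds and 0.11 with the strict filter.

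Of 536 KO over WT values of single members, 33 changed sign, none of them called. In cortex, with outlying backgrounds, Stard8 was -0.055, Cux2 -0.11 and Fezf2 -0.025; Foxp2 was 0.041 with processed signals, 0.019 with no background subtraction, 0.021 with the deposited table and -0.068 to 0.037 with 1 array left out. In hippocampus Rspo1 was -0.10 with median centring and Cux2 0.013 with the mean of probes, and with 1 array left out Fezf2 ranged from -0.078 to 0.18 and Foxp2 from -0.31 to 0.14. In the mean of both tissues Rspo1 was 0.063 and Cux2 -0.036 with processed signals, Stard8 was 0.0010 with no background subtraction and 0.0032 with the deposited table, and Cux2 was -0.11 with outlying backgrounds; with 1 array left out Rspo1 ranged from -0.092 to 0.031, Cux2 from -0.0056 to 0.014 and Foxp2 from -0.16 to 0.062. For cortex minus hippocampus, median centring gave Rspo1 0.095, Cplx3 0.26 and Tbr1 0.025, outlying backgrounds gave Lamp5 -0.12, Rorb -0.098, Cux2 -0.014 and Fezf2 -0.061, and processed signals gave Cplx3 0.021; with 1 array left out Cplx3 ranged from -0.071 to 0.011, Tbr1 from -0.14 to 0.047, Fezf2 from -0.066 to 0.19 and Foxp2 from -0.16 to 0.30. The cause was not tested for any of these.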
